A study of Drosophila melanogaster with 12 samples.

Results

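The genes described here encode the structural proteins of the basement membrane, the sheet of extracellular matrix under an epithelium. The set holds 9 of the 17716 gene symbols in the deposited table and was chosen by name. It comprises both collagen IV chains (Cg25C and vkg), the 4 laminin chains (LanA, LanB1, LanB2 and wb), perlecan (trol), nidogen (Ndg) and SPARC. Wing discs, the larval epithelium that becomes the adult wing, were taken from Drosophila melanogaster larvae 6 days after egg laying, and messenger RNA of pools of 60 discs was sequenced. The 12 libraries fall into 4 groups of 3, labelled WT, N (activated Notch), S (scrib mutant) and NS (both). In N, a flip-out Act>y+>Gal4 driver opened by abxUbx-Flp makes eGFP and the activated Notch transgene UAS Nicd in part of the disc. These larvae carry FRT82B tubGal80 over FRT82B. NS larvae have the same driver and transgene, with FRT82B scrib1 in place of the plain FRT82B chromosome. WT larvae carry the driver, UAS eGFP and FRT82B tubGal80 over FRT82B. The genotype given for WT replicates 2 and 3 nevertheless lists UAS Nicd, against their wild-type condition. S larvae have neither driver nor transgene and carry FRT82B scrib1 over the deficiency Df(3R)BSC752 in every cell. N and NS discs are therefore mosaic and S discs mutant throughout, so S and NS differ by more than Notch.

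A basement membrane is built from interlocking networks. Collagen IV is a trimer of long chains that forms a cross-linked mesh and gives the sheet its mechanical strength. Laminin is a cross-shaped trimer of an alpha, a beta and a gamma chain that binds cell receptors and starts assembly. Perlecan, a large heparan sulphate proteoglycan, and nidogen bridge the networks, and SPARC is a secreted glycoprotein that binds collagen IV. In fly larvae much of the collagen IV protein on the disc is made by the fat body and arrives through the haemolymph, and haemocytes (blood cells) make it too. A transcript level in a disc pool is thus not the amount of protein on the disc.

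Cg25C, an alpha chain of collagen IV listed today as Col4a1, lies on chromosome arm 2L at 5029609 to 5037279 on the plus strand of BDGP6, the Ensembl name of dm6. The second chain, vkg, lies beside it on 2L at 5012144 to 5028191 on the minus strand, and 1417 bases separate the divergent starts. The laminin alpha chains are long genes: LanA (3L, 6203831 to 6218022, minus strand) has 11.7 kb of merged exons and wb (2L, 14263027 to 14328262, plus strand) has 13.9 kb. The beta chain LanB1 (2L, 7811438 to 7820771, plus strand) has 6.28 kb of exons and the gamma chain LanB2 (3L, 9614914 to 9623980, plus strand) has 5.92 kb. The longest of the set is trol (X, 2470460 to 2545427, minus strand) with 20.7 kb of exons. The shortest is SPARC (3R, 26869238 to 26871995, minus strand) with 1.20 kb. Ndg (2R, 10313891 to 10322104, plus strand) has 4.82 kb of exons, of which 3.28% are shared with CG34222 on the other strand. SPARC lies 265 kb from scrib, and none of the sources used here says whether the deficiency of the S larvae reaches it.

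Library totals ran from 21024017 to 42407447 counts, and 9444 genes passed the filter on low counts, all 9 basement membrane genes among them. Levels are in CPM, read counts scaled to a common library size. A gene was called at an adjusted p under 0.05 in edgeR's quasi-likelihood test over all 12 libraries. The scrib transcript stood at 348 to 448 CPM in WT, 129 to 208 CPM in S, and 394, 434 and 87.2 CPM in NS. The Notch transcript stood at 652 to 885 CPM in WT and 2016 to 2236 CPM in N, with 1602, 1458 and 501 CPM in NS replicates 1 to 3 and 656, 604 and 287 CPM in those of S. The log2 change of Notch against WT was 1.48 ± 0.41 in N (edgeR adjusted p = 0.0903) and 0.67 ± 0.40 in NS (adjusted p = 0.243). Neither was called. With the exon length correction described next, both were, at 1.43 in N (edgeR adjusted p = 0.000182) and 1.17 ± 0.134 in NS (adjusted p = 0.000101). The library labelled NS replicate 3 was low in long genes as a class. Over 9379 genes, which are not independent replicates, the Spearman correlation between exon length and its log2 difference from the other NS libraries was −0.719, and for S replicate 3 the same measure was −0.43. Most basement membrane genes are long. Results that rest on these libraries are therefore also given without NS replicate 3, and after a correction of each library's log2 values for their trend with exon length. The labels do not say whether the pools of a group came from separate crosses, so a p-value covers the spread between pools.

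**Figure D1:**
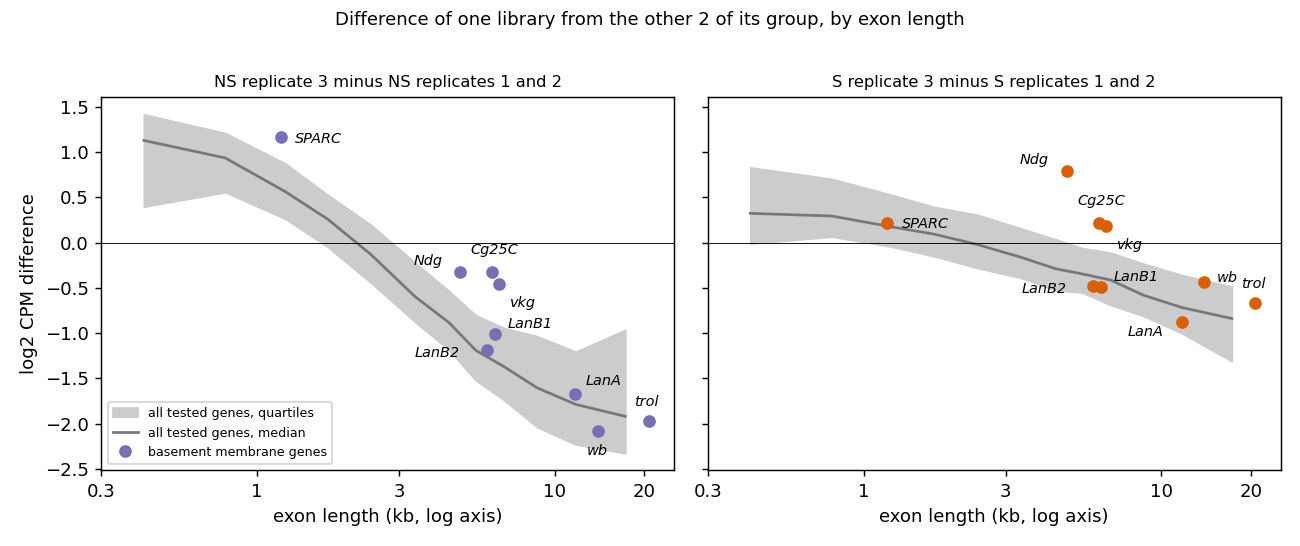
Log2 CPM difference of NS replicate 3 (left) and S replicate 3 (right) from the mean of the other 2 libraries of the group, against exon length in kb on a log axis. The grey line and band are the median and quartiles of all tested genes in bins of length and each dot is a basement membrane gene. In NS replicate 3 trol, wb and LanA lie at −1.97, −2.08 and −1.67, near the line for their length, SPARC lies at 1.16, and Cg25C, vkg and Ndg lie above the line.

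In N against WT edgeR called 0 of the 9 genes, where 1.05% of all tested genes were called higher and 2.03% lower. At an unadjusted p under 0.05 there were 2 (Cg25C and vkg, both lower in N), beside 1528 of 9444 tested genes in either direction. In DESeq2 1 of them (Cg25C) passed, beside 5.07% of genes called lower there. In S against WT 2 were called higher and 0 lower, beside 12.5% and 10.6% of all genes. In NS against WT 1 was called higher and 3 lower, beside 13.9% and 10.4%. Counts of 0 to 3 among 9 genes are too small to set the group apart from these shares. NS against N called 1 higher and 2 lower, beside 4.19% and 3.61%, and NS against S called 0 higher and 2 lower, beside 1.51% and 2.18%. The interaction asks whether NS departs from the N and S log2 changes added together. It called 0 higher and 1 lower, beside 0.826% and 0.455%. No basement membrane gene was lower in S than in WT, higher in NS than in S, or positive in the interaction, at an unadjusted p under 0.05 or by DESeq2. The genes lower in NS than in both N and S were the collagen IV pair. The median log2 change of the 9 genes was −0.39 in N, 0.02 in S and −0.38 in NS against WT, beside medians over all tested genes of 0.01, 0.04 and 0.03.

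**Figure D2:**
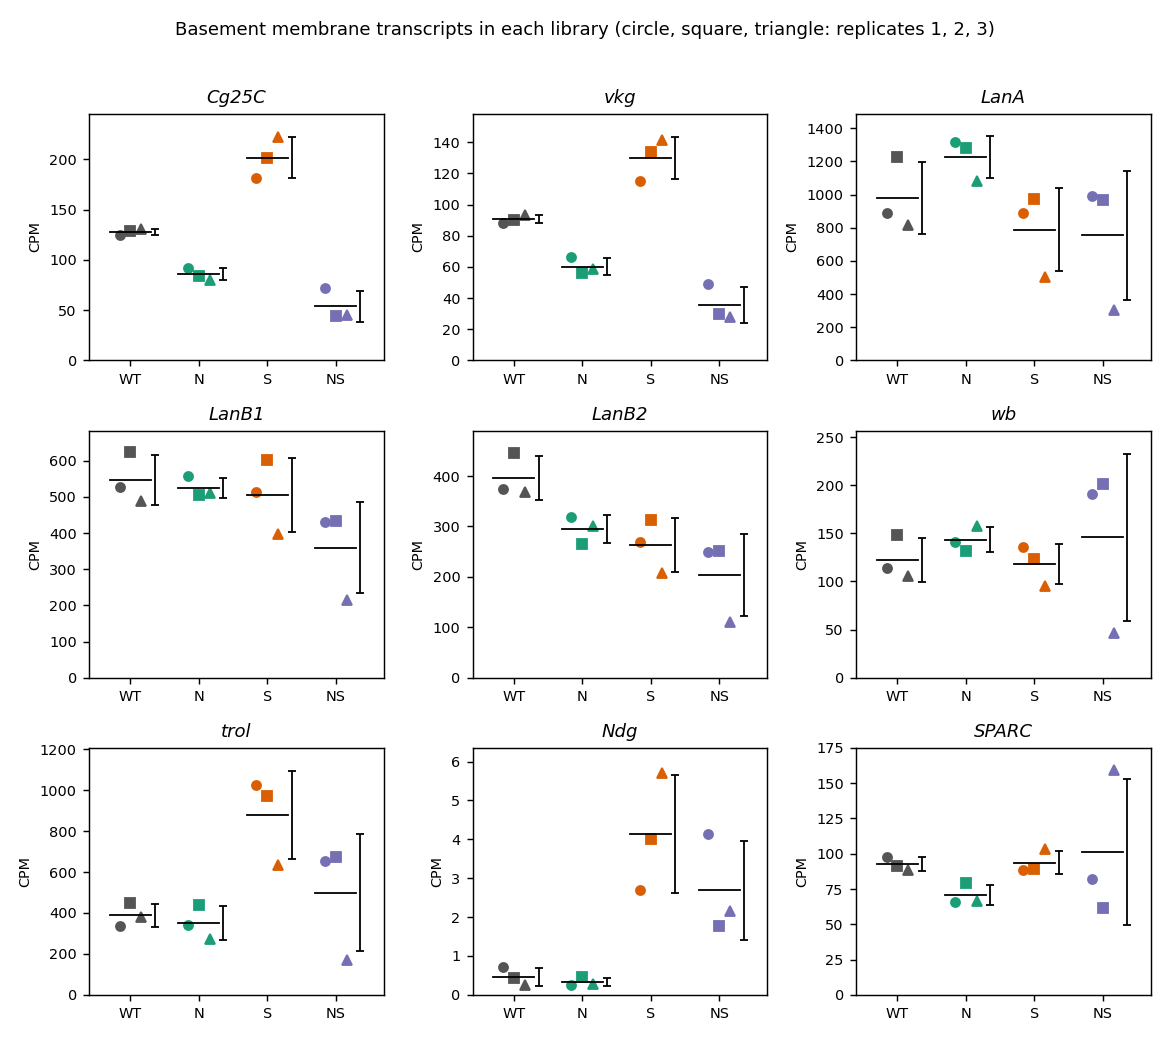
CPM of each basement membrane gene in each of the 12 libraries, grouped as WT, N, S and NS, with a line at the group mean and a bar of 1 SD; circles, squares and triangles are replicates 1, 2 and 3. Cg25C and vkg stand in the order S, WT, N and NS with no overlap between groups. Ndg is under 1 CPM in all WT and N libraries and between 1.77 and 5.72 CPM in S and NS, and NS replicate 3 is the lowest library for LanA, LanB1, LanB2, wb and trol.

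Per length, the laminin chains LanB1, LanA and LanB2 and SPARC were the most abundant of the set in WT and Ndg the least. The WT level per kb of exon was 87.0 ± 11.1 CPM for LanB1, 83.7 ± 18.6 for LanA, 77.0 ± 4.13 for SPARC and 66.9 ± 7.31 for LanB2 (mean ± SD, n = 3). Cg25C followed at 20.8 ± 0.502 CPM per kb, trol at 18.8 ± 2.70, vkg at 13.9 ± 0.388 and wb at 8.82 ± 1.64. Neighbours in this order overlapped within 1 SD from LanB1 down to LanB2, and again for Cg25C and trol, while the other neighbours did not. Ndg stood at 0.0976 ± 0.0484 CPM per kb, close to the level at which genes were left out.

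Collagen IV transcripts were highest in scrib mutant discs and lowest in discs with both changes. Cg25C levels in WT were 125, 129 and 131 CPM. They were 92.2, 84.4 and 80.4 CPM in N. In S they were 181, 202 and 222 CPM, and in NS 71.7, 44.3 and 45.1 CPM. Every library of a group lay apart from every library of the others, in the order S, WT, N, NS. For its partner vkg the WT libraries held 88.5, 89.8 and 93.3 CPM and the N libraries 66.3, 55.8 and 58.4 CPM. In S vkg stood at 115, 134 and 141 CPM, and in NS at 49.0, 29.9 and 27.9 CPM. The order was that of Cg25C, again with no overlap between groups.

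Cg25C rose 1.57-fold in S against WT (log2 change 0.66 ± 0.181 SE, edgeR adjusted p = 0.0261). The change of vkg in S was 0.52 ± 0.196 and did not pass the test (adjusted p = 0.0769), though it did without NS replicate 3 (0.52, adjusted p = 0.0261). The call for Cg25C was lost when S replicate 2, S replicate 3 or any 1 of the WT libraries was left out, with log2 changes of 0.57 to 0.68 and adjusted p of 0.0535 to 0.0917. It was also lost when WT replicate 1 stood alone for WT (0.71, adjusted p = 0.233) and with library totals as the scaling (0.54, adjusted p = 0.089). In N against WT the change was −0.58 ± 0.181 for Cg25C (adjusted p = 0.129) and −0.59 ± 0.196 for vkg (adjusted p = 0.157). Neither passed, although all 3 N libraries lay below all 3 WT libraries. Both passed edgeR's test with the N and WT libraries fitted alone (adjusted p = 0.00219 and 0.00308) and without NS replicate 1 in the fit (0.0374 and 0.0394).

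Both chains fell in NS. Against WT the log2 change was −1.25 ± 0.183 for Cg25C (2.38-fold lower, edgeR adjusted p = 0.000967) and −1.35 ± 0.199 for vkg (2.54-fold lower, adjusted p = 0.00105). After the exon length correction these were −0.67 (adjusted p = 0.0865, no longer called) and −0.77 (adjusted p = 0.0487). The correction gives 102 CPM of Cg25C in NS replicate 3, against 67.1 and 40.8 CPM in the other NS libraries.

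The difference of NS from S was larger than any other for both chains. It was −1.91 ± 0.187 for Cg25C (3.75-fold, edgeR adjusted p = 0.000319) and −1.87 ± 0.202 for vkg (3.65-fold, adjusted p = 0.000707). It was called for both under all 22 alternative settings, with adjusted p of at most 0.0498. Since S larvae lack the driver and are mutant in every cell, the parts of Notch and of the background in that difference cannot be told apart. NS against N, where driver and transgene are shared, gave −0.67 ± 0.182 for Cg25C (adjusted p = 0.0483) and −0.76 ± 0.197 for vkg (adjusted p = 0.0419). Those calls were lost under 15 of 22 alternatives for Cg25C and 14 for vkg, among them every fit without an N or a WT library, without NS replicate 2 or without S replicate 2. Without NS replicate 3 the values were −0.57 and −0.62 (adjusted p = 0.0744 and 0.0653). The length correction left −0.07 and −0.15 (adjusted p = 0.889 and 0.737).

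In the interaction, Cg25C in NS stood below the added N and S changes, with a log2 interaction of −1.33 ± 0.256 (edgeR adjusted p = 0.0386). For vkg the interaction was −1.28 ± 0.278 (adjusted p = 0.0582). Because S larvae lack the driver and are mutant in every cell, such departures cannot be told apart from that difference in background. The Cg25C value kept its sign in all 21 alternatives, between −1.68 and −1.06. Its call was lost in 15 of them, including the length correction (adjusted p = 0.161), every fit without a WT or an N library and those without NS replicate 2, S replicate 1 or S replicate 2. Without NS replicate 3 both chains passed, at −1.23 (adjusted p = 0.0266) and −1.14 (adjusted p = 0.0402).

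**Figure D3:**
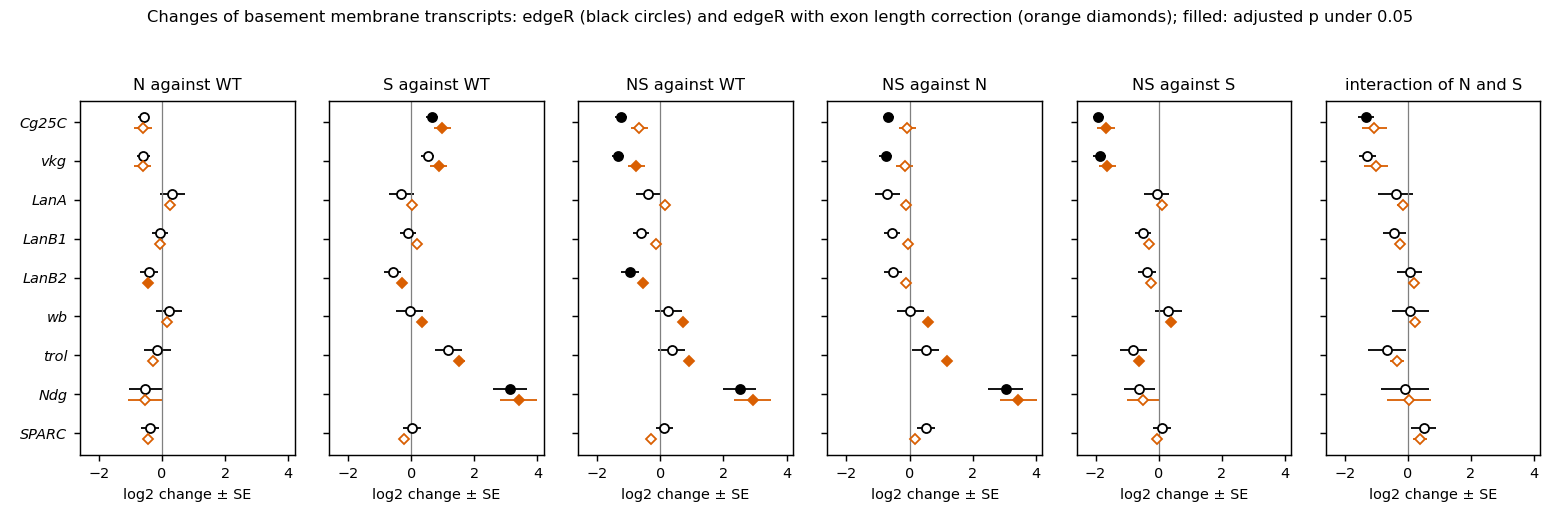
Log2 change of each basement membrane gene in each comparison, with bars of 1 SE, from edgeR over all 12 libraries (black circles) and from edgeR with the exon length correction (orange diamonds); filled points passed at an adjusted p under 0.05 and open points did not. The collagen IV pair lies at −1.91 and −1.87 in NS against S and Ndg at 3.13 in S against WT, and the black bars of the long genes LanA, wb and trol are wider than the orange ones.

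Levels of marker genes of other cell types also differed between libraries. The summed level of 11 haemocyte markers was 107 to 195 CPM in WT, 74.7 to 95.03 CPM in N, 184 to 681 CPM in S and 56.7 to 191 CPM in NS. Of the 11, 5 (Hml, lz, NimB4, NimC1 and Sr-CI) rose in S against WT, beside 12.5% of all tested genes. That count was 2 to 4 without any 1 of the WT or N libraries, S replicate 2 or S replicate 3, beside 5.76% to 12.4%. The lz gene, with 0 to 7 counts in the WT and N libraries, passed the low-count filter only through S and NS. Its place among the 5 is therefore no support for that count. In NS against S, where collagen IV differed most, the haemocyte median was −1.96. There edgeR called 2 lower (NimC1 and Hml), beside 2.18% of all tested genes. All 11 of 11 were lower at an unadjusted p under 0.05, which 1589 of 9444 tested genes reached in either direction. DESeq2 called 7 lower, beside 5.01% of the genes it tested. Without NS replicate 3 edgeR called 4, and without NS replicate 2 it called 1, beside 3.48% and 1.3% of all genes. In NS against N the haemocyte median was 1.00, opposite in sign to the changes of both collagen chains, and the NS sums overlapped WT. Hml, which encodes the clotting protein hemolectin of haemocytes, stood at 39.1, 110 and 166 CPM in the S libraries and at 10.8 to 23.6 CPM in the other 9. No haemocyte marker was at 0 in all libraries of a group, and the part of haemocyte RNA in the collagen IV levels was not tested. In bulk RNA, fewer cells of a type and less RNA per cell cannot be told apart.

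The 9 fat body markers, larval serum protein genes such as Lsp1beta among them, summed to 316 to 955 CPM in WT. Their sum was 13520 CPM in S replicate 1, 7372 CPM in NS replicate 1 and 3210 CPM in N replicate 2. It was 1522 and 1207 CPM in S replicates 2 and 3, also above WT. NS replicates 2 and 3, at 1144 and 1484 CPM, lay above WT too. Among these markers edgeR called 1 (FASN1) higher in S and in NS against WT, beside 12.5% and 13.9% of all tested genes. Without the 3 libraries of highest sum the Cg25C change in S was 0.73 (edgeR adjusted p = 0.0207). It was −1.52 in NS against WT (adjusted p = 0.00147) and −2.25 in NS against S (adjusted p = 0.00162). Each was larger in size than with them. The Cg25C interaction was then −1.68 and not called (edgeR adjusted p = 0.0513). The S and NS libraries kept in that fit still had sums above WT. The part of fat body RNA in the collagen IV levels was not tested. The 8 markers of adult muscle precursors, mesodermal cells that lie on the disc epithelium, summed to 281 to 333 CPM in WT and 247 to 294 CPM in S. They summed to 185 to 187 CPM in N and 170 to 199 CPM in NS. That sum was lower in all N and NS libraries than in all WT and S libraries, as both collagen chains were. Of these markers 4 (twi, htl, stumps and zfh1) fell in NS against WT, beside 10.4% of all tested genes. That count was 2 without WT replicate 2, beside 6.57%, and the part of these markers in the collagen IV levels was not tested. Of the 6 tracheal markers 2 rose (Gasp and serp) and 3 fell (btl, pio and trh) in S against WT. The shares of all tested genes were 12.5% and 10.6%. Without S replicate 3 or any 1 of the WT libraries 1 marker rose, beside 5.76% to 12.4%. The 5 neuron and glia markers summed to 12.9 to 44.2 CPM in 11 libraries and 153 CPM in S replicate 1. The 10 markers of the wing disc epithelium, nub, vg and ap among them, summed to 1869 to 2154 CPM in WT and 2848 to 3118 CPM in N. They summed to 1270 to 1524 CPM in S, and 2321, 2539 and 866 CPM in NS. The sum was thus above WT in all N libraries and below WT in all S libraries, the reverse of both collagen chains. The markers did not move together, so their sum cannot be read as the amount of epithelium. In S nub stood at 67.7 to 80.1 CPM, against 272 to 293 CPM in WT. The S levels of ap were 382 to 452 CPM, against 393 to 449 CPM in WT. Of the 10, 5 fell in S (nub, Dll, hh, vg and en), beside 10.6% of all tested genes. In NS against WT 4 fell (en, nub, Dll and hh) and 1 rose (vg), beside 10.4% and 13.9%. The count that rose was 3 without NS replicate 3, beside 13.1%. It was 0 without any 1 other library, with RLE and with library totals. The count that fell was 2 without WT replicate 2 or WT replicate 3, beside 6.57% and 8.51%. It was 1 with NS and WT fitted alone, beside 6.03%, and 0 without the 3 libraries rich in fat body RNA. The part of these shifts in the collagen IV levels was not tested.

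**Figure D4:**
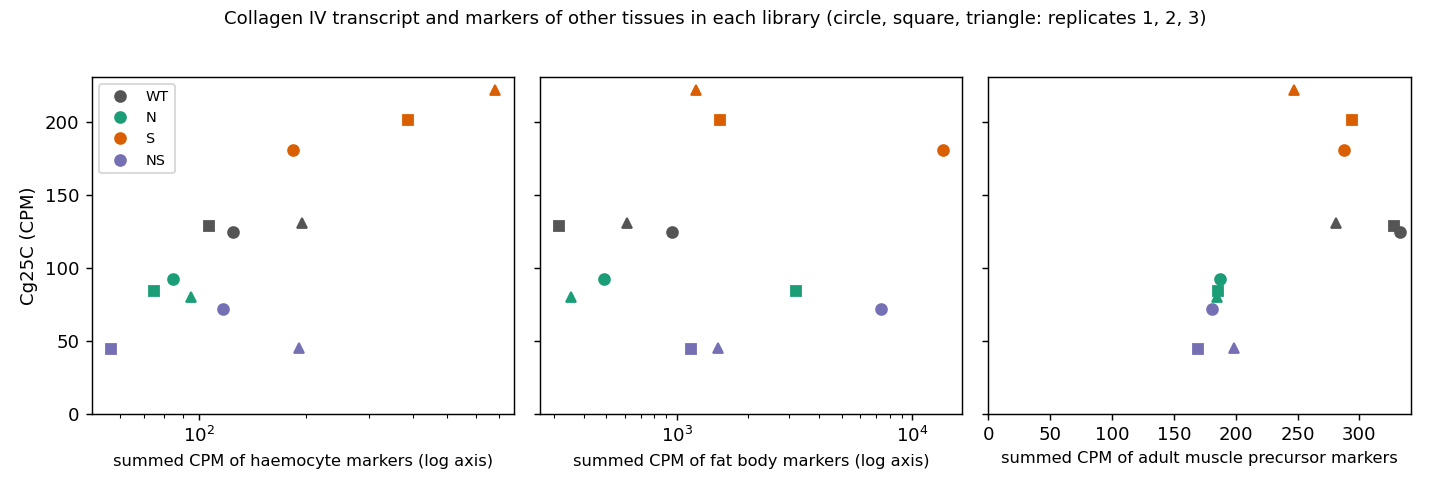
Cg25C level in CPM against the summed CPM of marker genes of haemocytes, fat body and adult muscle precursors, 1 panel each, with 1 point per library, coloured by group and shaped by replicate (log axis where labelled). S replicates 2 and 3 are highest for Cg25C and for the haemocyte sum, where S replicate 1 lies beside WT replicate 3 and NS replicate 3. The 3 libraries with the highest fat body sum belong to 3 groups, and the N and NS libraries are lowest for Cg25C and for the muscle precursor sum.

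Among the laminins the gamma chain LanB2 fell in NS, and the other chains passed the test in no comparison. The WT libraries held 374, 446 and 367 CPM of LanB2 and the N libraries 320, 266 and 300 CPM. It stood at 269, 313 and 208 CPM in S and at 250, 252 and 110 CPM in NS. All 9 libraries outside WT lay below the WT range. The change was −0.96 ± 0.283 in NS (1.94-fold lower, edgeR adjusted p = 0.0332), −0.59 ± 0.282 in S (adjusted p = 0.149) and −0.42 ± 0.281 in N (adjusted p = 0.554).

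The LanB2 values leaned on NS replicate 3. Without that library the change was −0.66 in NS (edgeR adjusted p = 0.0146) and −0.59 in S (adjusted p = 0.00854). With the length correction it was −0.54 in NS (adjusted p = 0.00139), −0.30 in S (adjusted p = 0.0264) and −0.44 in N (adjusted p = 0.0158), all 3 called. The call in NS was lost under 9 other alternatives, with adjusted p of 0.0503 to 0.324. These were each fit without an N or a WT library, WT replicate 1 standing alone, NS and WT fitted alone, and the fit without the 3 libraries rich in fat body RNA.

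LanB1, the beta chain, ranged over 488 to 624 CPM in WT, 505 to 557 CPM in N, 397 to 603 CPM in S and 215 to 434 CPM in NS. The NS libraries lay below WT and the other groups overlapped it. Its log2 change in NS was −0.61 ± 0.256 (edgeR adjusted p = 0.108), and −0.13 with the length correction.

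The alpha chains overlapped between WT and each other group. LanA ranged over 818 to 1225 CPM in WT, 1083 to 1314 CPM in N, 506 to 974 CPM in S and 306 to 990 CPM in NS. Its log2 changes against WT were 0.33 in N, −0.31 in S and −0.38 in NS (edgeR adjusted p = 0.829, 0.581 and 0.501). The second alpha chain, wb, whose loss gives blisters in the adult wing, had WT levels of 114, 149 and 106 CPM and N levels of 142, 131 and 157 CPM. In S it stood at 136, 123.4 and 95.7 CPM, and in NS at 191, 201 and 46.2 CPM. NS replicates 1 and 2 lay above every other library and NS replicate 3 below every other. Over all libraries the change of wb in NS was 0.25 ± 0.419 (adjusted p = 0.68). Without NS replicate 3 it was 0.67 (adjusted p = 0.0153), and with the length correction 0.71 (adjusted p = 0.00054). The corrected wb levels were 160 to 173 CPM in NS and 93.1 to 110 CPM in WT.

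Perlecan also read differently with and without these libraries. The level of trol was 339, 449 and 379 CPM in WT and 343, 437 and 274 CPM in N. It was 1027, 973 and 632 CPM in S and 653, 675 and 170 CPM in NS. All S libraries lay above all WT and N libraries, and in NS 2 libraries lay above and 1 below them. The change in S was 1.17 ± 0.431 (2.26-fold, edgeR adjusted p = 0.0722). Leaving NS replicate 3 out of the fit made it a call (1.17, adjusted p = 0.00187), as did fitting S and WT alone (1.15, adjusted p = 0.0107) and DESeq2 (1.14, adjusted p = 0.0318). It was also called with the length correction (1.53, adjusted p = 5.99e-05) and without NS and S replicates 3 (1.35, adjusted p = 0.000361). In NS against WT it was 0.36 ± 0.426 (edgeR adjusted p = 0.551). That value became 0.77 when NS replicate 3 was left out (adjusted p = 0.0327) and 0.90 after the length correction (adjusted p = 0.00172). The corrected trol levels were 833 to 1028 CPM in S, 560 to 689 CPM in NS, 316 to 336 CPM in WT and 215 to 342 CPM in N.

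Nidogen had the largest fold changes of the set, at the lowest level. Ndg counts were 28, 17 and 11 in WT and 10, 17 and 13 in N. These are 0.256 to 0.718 CPM and 0.242 to 0.448 CPM. In S there were 103, 128 and 213 counts (2.69 to 5.72 CPM), and in NS 157, 36 and 75 counts (1.77 to 4.15 CPM). Every library of S and NS lay above every library of WT and N. Ndg rose in S (log2 change 3.13 ± 0.538, edgeR adjusted p = 0.00248), in NS against WT (2.51 ± 0.527, adjusted p = 0.00722) and in NS against N (3.04 ± 0.541, adjusted p = 0.00654). NS and S overlapped (−0.62 ± 0.494, adjusted p = 0.613). The call against N held under all 22 alternatives, and those against WT under all but WT replicate 1 standing alone (2.54 in S and 1.91 in NS, adjusted p = 0.108 and 0.214). Without the 3 libraries rich in fat body RNA the change was 3.37 in S (adjusted p = 0.00551) and 2.06 in NS (adjusted p = 0.0344).

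SPARC passed the test in no comparison. It ranged over 88.2 to 97.9 CPM in WT, 66.2 to 79.3 CPM in N and 88.8 to 103 CPM in S, and stood at 82.4, 61.5 and 160 CPM in NS. All N libraries lay below the WT range (log2 change −0.39 ± 0.279, edgeR adjusted p = 0.603), whereas S overlapped WT (0.02 ± 0.279, adjusted p = 0.966). NS replicate 3 was the highest of all libraries for this short gene. The NS change of 0.13 ± 0.279 (adjusted p = 0.753) became −0.37 without it (adjusted p = 0.0868).

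Counted by separation alone, all N libraries lay below all WT libraries for 4 of the 9 genes (Cg25C, vkg, LanB2 and SPARC) and above for 0, beside 17.2% and 16.9% of all tested genes. In S the libraries lay above WT for 4 genes (Cg25C, vkg, trol and Ndg) and below for 1 (LanB2), beside 27% and 23.9%. In NS they lay above WT for 1 (Ndg) and below for 4 (Cg25C, vkg, LanB1 and LanB2), beside 21.7% and 21.5%. The collagen IV pair were the genes of the set apart in every comparison of groups. NS lay above N for 1 gene and below for 5, beside 20.5% and 21%, and above S for 0 and below for 2, beside 8.5% and 9.11%.

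Pairs of basement membrane genes, within a trimer or not, kept their proportions to different degrees. Per length, the ratio of vkg to Cg25C was 0.67 ± 0.00912 in WT, 0.666 ± 0.0337 in N, 0.611 ± 0.0151 in S and 0.624 ± 0.0327 in NS (mean ± SD, n = 3). All 12 libraries lay between 0.587 and 0.689. The ratio of LanB2 to LanB1, of like exon length, was 0.77 ± 0.0249 in WT, 0.597 ± 0.034 in N, 0.554 ± 0.00189 in S and 0.593 ± 0.0417 in NS. The lowest WT ratio was 0.754 and the highest outside WT was 0.623. For LanA to LanB1 the ratio was 0.954 ± 0.0874 in WT, 1.26 ± 0.113 in N, 0.826 ± 0.126 in S and 1.07 ± 0.261 in NS. After the length correction these means were 0.929, 1.18, 0.834 and 1.13. The ratio of trol to LanA, both long genes, was 0.228 ± 0.0298 in WT, 0.161 ± 0.0274 in N, 0.642 ± 0.0715 in S and 0.361 ± 0.0427 in NS. No groups overlapped, and the means were 0.228, 0.153, 0.645 and 0.378 after the length correction. For wb to LanA the ratio was 0.106 ± 0.00358 in WT, 0.0996 ± 0.0196 in N, 0.132 ± 0.0264 in S and 0.155 ± 0.0252 in NS. These ratios were chosen after the levels were seen and are a description, with no test.

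**Figure D5:**
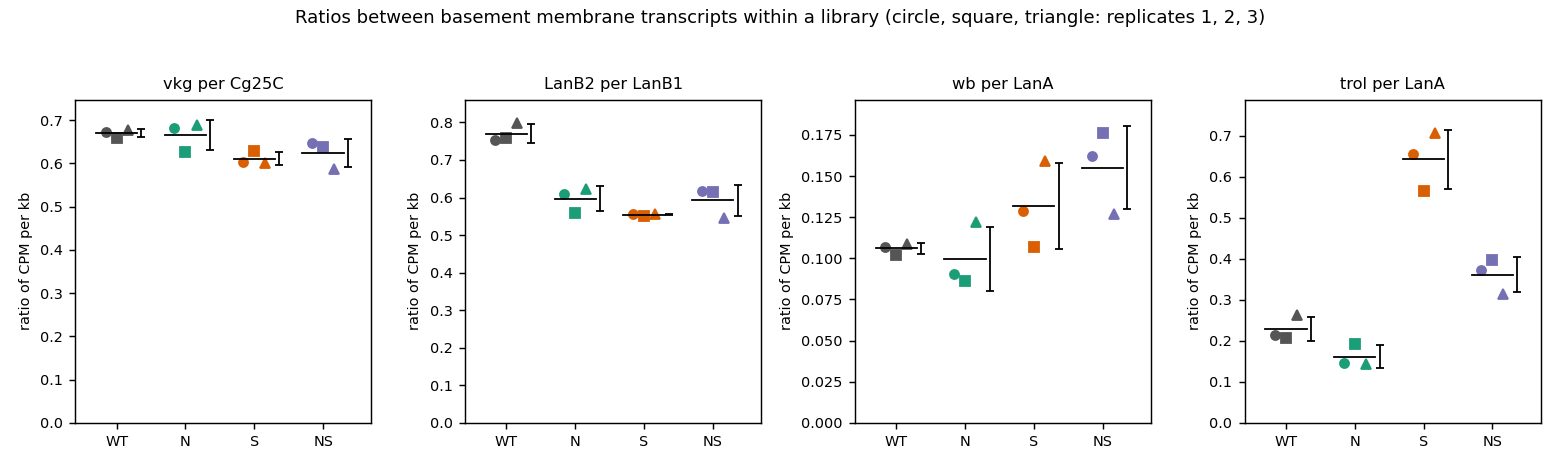
Ratio of the levels per length of a pair of basement membrane genes in each library, 1 panel per pair, with a line at the group mean and a bar of 1 SD. LanB2 per LanB1 lies between 0.754 and 0.799 in WT and at or below 0.623 in all other libraries. The ratio trol per LanA lies at 0.565 or more in S and at 0.262 or less in WT and N, and vkg per Cg25C stays between 0.587 and 0.689.

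Across the 12 libraries, log2 levels of Cg25C and vkg had a Pearson r of 0.995, and 0.976 once group means were removed. LanB1 and LanB2 had an r of 0.934 (0.989 within groups) and LanA and LanB1 one of 0.882 (0.985 within groups). Collagen and laminin chains were less alike, with 0.532 for Cg25C and LanB1. The most negative pair was wb and SPARC, a long and a short gene, at −0.891. Of 36 pairs 2 were over 0.9 and 9 under 0. The points share libraries, depth and the length trend, so these values are a description.

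Of 6825 genes with a mean of at least 5 CPM, those most like the mean collagen IV pattern over the 12 libraries were CAH2 (r = 0.938), Fili (0.931), CG12009 (0.927), CG15544 (0.919) and htl (0.912). The last is an FGF receptor of the muscle precursors. Once group means were removed, r for these genes was 0.54, 0.348, 0.174, 0.655 and 0.281, in that order. Of further genes looked up, Plod, which hydroxylates lysines of collagen, ranked 24 at 0.856. The prolyl hydroxylase gene PH4alphaEFB ranked 464 at 0.53, Hml 177 at 0.686, Ppn 365 at 0.574 and Pxn 2038 at 0.217. The genes most like the laminin pattern were kug and sli (0.981 each), then bark, ds and CG14562 (0.978 each). Within groups their r was 0.968 to 0.983. Their exon lengths were 5.38 to 14.5 kb, and kug and ds encode large cadherins.

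Most of the enzymes and trafficking factors that make and export collagen were not called. Of 12 such genes edgeR called 0 higher and 1 lower in N, beside 1.05% and 2.03% of all genes. It called 1 higher and 2 lower in S, beside 12.5% and 10.6%, and 0 higher and 3 lower in NS against WT, beside 13.9% and 10.4%. No gene of the list was higher in N or NS against WT at an unadjusted p under 0.05 or by DESeq2. Comparing NS with N, NS with S and in the interaction, edgeR called 0. An unadjusted p under 0.05 was reached there by 1, 3 and 3 genes, beside 2608, 1589 and 1248 of 9444 tested genes. DESeq2 called 3 lower in NS than in S and 2 positive in the interaction, beside 5.01% and 3.01% of the genes it tested. In NS against N it called 0. Leaving out NS replicate 3 gave 3 lower in NS than in S and 1 positive in the interaction, beside 3.48% and 1.82% of all genes. The length correction gave 3 and 2, beside 4.94% and 2.15%. The median log2 change of the list was −0.38 in N, −0.29 in S and −0.35 in NS. Its count of genes lower in NS was 8 without NS replicate 3, beside 12.2% of all genes. It was 1 without WT replicate 1 or WT replicate 2, beside 6.65% and 6.57%. Its count lower in N was 5 without NS replicate 3 and 2 without WT replicate 3, beside 4.48% and 1.85% of all genes. It was 0 without any 1 of the N libraries, WT replicate 1 or WT replicate 2. Its count lower in S was 6 without NS replicate 3, beside 20.6% of all genes. It was 1 without any 1 of the S or WT libraries, N replicate 1 or N replicate 2, beside 6.37% to 11.9%.

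Pdi encodes a protein disulphide isomerase of the endoplasmic reticulum that is also a subunit of collagen prolyl hydroxylase. It stood at 1658 to 1991 CPM in WT, 1013 to 1146 CPM in N, 858 to 1008 CPM in S and 838 to 1084 CPM in NS. It fell in all 3 groups, with log2 changes of −0.78 ± 0.142 in N, −1.02 ± 0.142 in S and −0.98 ± 0.142 in NS (edgeR adjusted p = 0.0162, 0.000685 and 0.000908). An antisense RNA gene shares 21.5% of its exon bases. Rab10, a GTPase of basal secretion, stood at 80.8 to 88.3 CPM in WT and 126 to 149 CPM in S (0.69 ± 0.164, adjusted p = 0.0133). No gene of the list was called higher in S without WT replicate 1, WT replicate 2 or the 3 libraries rich in fat body RNA, or with library totals. In NS against WT Plod fell by 0.53 (adjusted p = 0.0194). Tango1, which loads collagen into carriers at the endoplasmic reticulum, fell by 0.43 (adjusted p = 0.0314).

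Among proteins that cross-link, cleave or sit in the matrix, those called in N were lower and most of those called in S were higher. Of 12 genes 4 fell in N (Timp, Mmp2, Tig and Mp) and 0 rose, beside 2.03% and 1.05% of all genes, with none higher at an unadjusted p under 0.05 or by DESeq2. In S 6 rose (Mmp1, lox2, Timp, Glt, Tig and Pxn) and 1 fell (Mp), beside 12.5% and 10.6%. In NS against WT 2 rose (lox2 and Mmp1) and 5 fell (Timp, Mp, Ppn, stl and Mmp2), beside 13.9% and 10.4%. The list medians were −0.81, 0.51 and −0.36. The list was chosen with earlier results of these data known, so its counts beside these shares are a description. In NS against N 4 were higher (Tig, lox2, Mmp1 and Mmp2) and 0 lower, beside 4.19% and 3.61% of all genes. There 1 was lower at an unadjusted p under 0.05, which 2608 of 9444 tested genes reached in either direction. By DESeq2 1 was lower, beside 7.57% of the genes it tested. Leaving out 1 library at a time gave 5 or 6 genes higher in S, beside 5.76% to 23.5% of all genes. It gave 2 lower in N without any 1 of the N libraries, WT replicate 1 or WT replicate 2, beside 0.585% to 0.832%. The count lower in NS against WT was 3 without any 1 of the WT libraries, N replicate 1, N replicate 3, NS replicate 2 or S replicate 2. The shares of all genes there were 6.57% to 9.43%. The count higher in NS than in N was 2 without N replicate 2 or N replicate 3, beside 2.39% and 1.65%. It was 1 without the 3 libraries rich in fat body RNA, beside 1.46%. With WT replicate 1 standing alone for WT, edgeR called 0 in S.

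Timp encodes the inhibitor of the matrix metalloproteases, and its level was 12.3, 12.9 and 9.12 CPM in WT against 3.19, 2.55 and 2.67 CPM in N. In S it stood at 21.7, 22.7 and 39.1 CPM, and in NS at 2.51, 2.61 and 3.07 CPM. It was low in both groups with activated Notch and high in S. Its log2 changes were −2.03 ± 0.249 in N, 1.28 ± 0.241 in S and −2.07 ± 0.251 in NS against WT (edgeR adjusted p = 0.0019, 0.00397 and 0.000322). In NS against S the change was −3.35 ± 0.263 (adjusted p = 5.98e-05). Syn on the other strand shares 15.7% of its exon bases.

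The metalloprotease Mmp1 stood at 216, 175 and 128 CPM in WT, 536, 689 and 1094 CPM in S and 582, 456 and 328 CPM in NS. It rose in S (log2 change 2.16 ± 0.336, edgeR adjusted p = 0.00135) and in NS (1.40 ± 0.328, adjusted p = 0.0124). Tig encodes tiggrin, an integrin ligand of the matrix that haemocytes also make. It stood at 49.9 to 101 CPM in WT, 20.6 to 23.4 CPM in N, 167 to 216 CPM in S and 85.7 to 179 CPM in NS. Tig fell in N (−1.77 ± 0.306, adjusted p = 0.0128), rose in S (1.37 ± 0.301, adjusted p = 0.00931) and was higher in NS than in N (2.45 ± 0.313, adjusted p = 0.00128). The lysyl oxidase gene lox2 was at or under 0.0257 CPM in every WT and N library and at 0.496 to 1.93 CPM in S and NS. With 0 or 1 count in each WT and N library, it passed the low-count filter only through the groups where it is high, so no p-value is given for it and its place in the counts above is no support for them. The S levels of Tig were 207, 167 and 216 CPM, where the haemocyte markers summed to 184, 388 and 681 CPM, and the part of haemocyte RNA in the matrix genes that rose was not tested.

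Of 16 receptors and cytoplasmic linkers of the matrix, 0 rose and 1 fell in N (ItgaPS4), 3 rose and 1 fell in S, and 1 rose and 1 fell in NS against WT (Ilk and Dg). The shares of all tested genes were 1.05% and 2.03% in N, 12.5% and 10.6% in S and 13.9% and 10.4% in NS, and the S and NS counts of 16 genes are too small to set the list apart from them. In N no gene of the list was higher at an unadjusted p under 0.05 or by DESeq2. The 3 that rose in S encode the partners of one complex at integrin tails, Ilk, parvin and stck (PINCH). Their log2 changes in S were 0.86 ± 0.16, 0.68 ± 0.148 and 0.61 ± 0.136 (edgeR adjusted p = 0.00373, 0.00816 and 0.00944). Ilk stood at 55.7 to 60.3 CPM in WT and 91.7 to 124 CPM in S. The integrin alpha chain gene ItgaPS5 fell in S, from 8.61 to 14.4 CPM in WT to 4.22 to 6.35 CPM (−1.16 ± 0.253, adjusted p = 0.00843). Comparing NS with N, NS with S and in the interaction, edgeR called 0. An unadjusted p under 0.05 was reached there by 6, 2 and 1 genes, beside 2608, 1589 and 1248 of 9444 tested genes. DESeq2 called 2 higher in NS than in N and 1 positive in the interaction, beside 9.13% and 3.01% of the genes it tested. In NS against S it called 0. Leaving out NS replicate 3 gave 4 higher in NS than in N, beside 5% of all genes. It gave 1 higher and 2 lower in NS than in S, beside 3.79% and 3.48%. The median log2 change of the list was −0.12 in N, 0.24 in S and −0.06 in NS. Its count of genes higher in S was 8 with the length correction and 6 without NS replicate 3, beside 19.3% and 23.5% of all genes. Its count higher in NS against WT was 3 without NS replicate 3 or S replicate 3, beside 13.1% and 13.5%. That count was 0 without WT replicate 2, beside 6.07%. The count lower in NS against WT was 0 without WT replicate 1 or WT replicate 2, beside 6.65% and 6.57% of all genes. It was 2 without NS replicate 2 and 4 by DESeq2, beside 9.43% and 13.8%. The fall of ItgaPS4 in N was not called without any 1 of the N or WT libraries. Exons of parvin overlap other genes on both strands, by 14.6% on the opposite one.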

How the data were processed

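Library preparation used a stranded mRNA kit on RNA of 60 discs per pool, according to the labels. The authors deposited 1 table of raw read counts by gene symbol. TopHat2 2.0.9, Bowtie2 2.1.0, HTSeq, edgeR, DESeq and build dm6 are named in the submitters' processing notes. Neither the annotation release nor the counting's strand setting is given in these sources, and without strand overlapping genes could not be told apart. Of the 17716 symbols, printed as deposited, 13320 matched a current symbol in Ensembl's BDGP6 annotation, 4215 matched a synonym and 181 were unmatched. The 2 blank lines hold no counts and were dropped. No pair of libraries was identical.

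Tests used edgeR 4.0.16 under R 4.3.3. After filterByExpr (9444 genes) and TMM scaling, a robust quasi-likelihood model with 1 coefficient per group was fitted to the 12 libraries, leaving 8 residual degrees of freedom. P-values were adjusted by Benjamini-Hochberg over all tested genes, with calls at 0.05. An SE is the log2 change over the square root of F. CPM are counts per TMM-scaled library, and correlations used log2 CPM with a prior count of 2. The fit was also run on simulated counts with known changes put into N alone. Those counts had no trend with exon length and no shared deviations of S and NS libraries. That run therefore cannot show how the fit handles either.

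The 9 genes, the further lists and the markers were chosen with earlier results of these data known. The rule for named genes took the 9 members, up to 4 genes per further list with the smallest adjusted p, the 5 genes most like each pattern, and scrib and Notch as checks. Further list genes are named where they make up a count, after their values were seen. Deviations from group means moved together for same-numbered S and NS libraries (r = 0.456, 0.493 and 0.327), but not for any other 2 groups, where 1 or more r lay below 0.1. A replicate block changed no call of the 9 genes in NS against S. The alternatives were DESeq2 1.42.0, size factors by RLE, scaling by library totals, no low-count filter, fits of only the compared groups, the replicate block, leaving out each library, WT replicate 1 as the only WT library, leaving out the 3 libraries with most fat body RNA, leaving out NS and S replicates 3 together, and a correction of log2 values for exon length (lowess span 0.3).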

Additional observations from a re-analysis of the deposited data

Results flagged for a closer look

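By a test of the difference itself, the log2 change of Cg25C in NS was lower than its N and S changes added together. The interaction was −1.33 ± 0.256 SE (edgeR adjusted p = 0.0386, 3 libraries per group). With the exon length correction it was −1.06 and not called (adjusted p = 0.161). Since S larvae lack the driver and are mutant in every cell, this departure cannot be told apart from that difference in background. The NS libraries stood at 44.3 to 71.7 CPM, below all 9 others. With each library left out in turn the adjusted p was up to 0.122 with the same sign, and with WT replicate 1 alone as WT it was 0.218.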

How the results depend on the processing

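Each of the 54 log2 changes (9 genes, 6 comparisons) was recomputed under up to 22 settings. Of 1179 values 1004 kept direction and side of the threshold, 63 lost a call, 47 gained one and 65 changed sign, none of the last from a called value. The cause of these changes was not tested, and the fits that leave libraries out also differ in how many they hold. The collagen IV calls in NS against S held throughout, and those of Ndg in all fits but WT replicate 1 alone. Depth limits Ndg, with 10 to 28 counts per WT and N library.

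Members called lower in N were 0, and 1 with the length correction, 4 with the compared groups alone, 4 without NS and S replicates 3, 1 with DESeq2 and 0 to 2 with each library left out. In S 2 were higher: 1 with library totals, 5 with the length correction, 4 with the groups alone, 0 with WT replicate 1 alone, 1 to 4 with each library left out; 0 were lower, but 1 with the length correction, the groups alone and without NS and S replicates 3, and 0 to 1 with each left out. In NS against WT 1 was higher: 3 with the length correction and without NS and S replicates 3, and 1 to 3 with each left out. There 3 were lower, and 5 without NS and S replicates 3. Of those 3, LanB2 lost its call in 9 of 22 settings and Cg25C in 1, the length correction. In NS against N 1 was higher: 3 with the length correction and without NS and S replicates 3, 1 to 2 with each left out; 2 were lower, but 0 with no filter, the replicate block, the length correction, the groups alone and WT replicate 1 alone, and 0 to 2 with each left out. In NS against S 0 were higher, 1 with the length correction and without NS and S replicates 3, and 0 to 1 with each left out. The share of all genes called moved too: lower in N it was 2.03%, and 5.3% with the length correction, 8.71% with the groups alone and 9.03% without NS and S replicates 3; higher in S it was 12.5%, and 2.35% with WT replicate 1 alone to 23.5% without NS replicate 3. The interaction had 1 lower: 0 with library totals, no filter, the replicate block, the length correction and WT replicate 1 alone, 2 without NS and S replicates 3 and with DESeq2, and 0 to 2 with each left out.

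Values that changed sign, all from uncalled values, were these on the log2 scale. In N, with each library left out, LanB1 ranged from −0.13 to 0.051 and trol from −0.33 to 0.0076, and with WT replicate 1 alone they were 0.011 and 0.070. With the length correction LanA was 0.032 in S, 0.15 in NS against WT and 0.12 in NS against S, LanB1 in S 0.19 and wb in S 0.33 (adjusted p = 0.0301). With it SPARC was −0.21 in S, −0.28 in NS against WT and −0.067 in NS against S, and the Ndg interaction 0.042. Without NS and S replicates 3, LanB1 in S was 0.020, wb in S 0.068 and LanA in NS against S 0.073. SPARC was then −0.069 in S, −0.37 in NS against WT (adjusted p = 0.0483) and −0.30 in NS against S, and the Ndg interaction 0.36. SPARC in S was −0.019 with RLE, −0.096 with library totals, −0.0089 with the groups alone, −0.047 with WT replicate 1 alone and −0.017 with DESeq2, and in NS against WT −0.064 with library totals. With WT replicate 1 alone wb in S was 0.075, and the interactions of LanB2, wb and Ndg were −0.053, −0.056 and 0.49. In NS against N wb was −0.099 with library totals, −0.13 with the replicate block and −0.27 without the fat body libraries. Without the latter the LanB2 and wb interactions were −0.18 and −0.11, and the wb interaction was −0.075 with the replicate block. With each library left out the ranges in S were −0.26 to 0.022 for LanB1, −0.16 to 0.11 for wb and −0.066 to 0.065 for SPARC. In NS against WT they were −0.047 to 0.67 for wb and −0.37 to 0.41 for SPARC, and in NS against N −0.28 to 0.44 for wb. In NS against S they were −0.31 to 0.31 for LanA and −0.39 to 0.39 for SPARC. For the interactions they were −0.13 to 0.34 (LanB2), −0.23 to 0.49 (wb), −0.56 to 0.22 (Ndg) and −0.0059 to 0.77 (SPARC).

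Library totals moved the median of all genes from 0.03 to −0.13 in NS against WT, from 0.04 to −0.07 in S and from 0.07 to −0.10 in NS against N, and the share of higher calls fell with it, from 1308 higher and 986 lower genes in NS to 786 and 1146. Over all genes N against WT called 99 higher and 192 lower, but 9 and 109 with WT replicate 1 alone, 19 and 51 without the fat body libraries, 599 and 867 without NS and S replicates 3, and 317 and 502 with DESeq2. S and NS pools of the same number deviated together; the block called 112 higher and 172 lower genes in NS against S, against 143 and 206. Replicate numbers of other groups did not (0 to 3 of 6 libraries were most like their own number), and there the block moved the NS against N and interaction counts of the 9 genes as given above.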
